A study of Mus musculus with 8 samples.

Results

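The nuclear RNA polymerases of mouse CD8+ T cells were followed through the transcripts of their subunits. The set held 34 of the 47069 genes in the deposited table, chosen by name and not by their values: every gene whose symbol is Polr1, Polr2 or Polr3 followed by a subunit letter, together with Rrn3, Ubtf, Taf1a, Taf1b, Taf1c and Taf1d, which start transcription by Pol I. By polymerase, 3 genes encode subunits of Pol I, 2 are shared by Pol I and Pol III, 8 belong to Pol II, 5 are shared by all 3 enzymes, 10 belong to Pol III and 6 are the Pol I initiation factors. The cells were OT-I T cells, whose transgenic receptor recognises a peptide of ovalbumin, taken from mouse lymph nodes and labelled as wild type. All were stimulated for 24 h with 10 nM SIITFEKL (OVA-T4), an altered peptide of low affinity for the receptor. The 4 libraries called OVA-T4 received the peptide alone and the 4 called OVA-T4 + TGFβ received 5 ng/ml of recombinant TGFβ as well. The labels describe the replicates of each group as biological. Both OT-I and OT-I Rag1-/- animals appear in the study's methods, without a statement of which gave these samples, and no sort is described.

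Pol I makes the precursor of the large ribosomal RNAs, Pol II makes messenger RNAs, and Pol III makes transfer RNAs, the 5S ribosomal RNA and other short RNAs. The 3 enzymes are built on the same plan: a pair of large subunits forms the active centre, a small dimer holds them during assembly, and 5 small subunits are common to all of them. A T cell that meets antigen enlarges before it divides, and output of ribosomal and transfer RNA rises with its growth.

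The libraries held 35586261 to 41597929 fragments, solved from the deposited FPKM (fragments per kilobase of gene, scaled to the library total). At this depth 1 fragment in a gene of 1 kb was worth 0.0240 to 0.0281 FPKM, and each of the 34 genes rested on 339 to 16877 fragments per library. Replicates of a group correlated at r of 0.981 to 0.992 across genes, and every pair of them differed by more than sampling noise (chi-square per degree of freedom of 10.5 to 59.5). OVA-T4 replicate 2 stood apart in Rn18s-rs5, a copy of 18S ribosomal RNA, which has no poly(A) tail. Rn18s-rs5 was at 3394 FPKM there, at 328 to 469 FPKM in the other OVA-T4 libraries and at 482 to 766 FPKM with TGFβ. Without that library 21 of the 34 genes were lower and 2 higher, against 23 and 2 with it. Over all genes the numbers were 2298 lower and 3467 higher without it, against 2607 and 3955 with it. Transcripts of 8 CD8 T cell markers, Cd8a and Cd8b1 among them, were high. Their summed level was 2820 to 3130 FPKM with OVA-T4 and 3440 to 3620 FPKM with TGFβ. Of the 8 markers, 5 passed the test as higher, beside 30.7% of all genes tested.

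Transcripts of other lymph node cells were low and moved with TGFβ. Summed levels with OVA-T4 and with TGFβ were 3.87 to 5.25 and 10.3 to 12.3 FPKM for 7 B cell markers, 4.8 to 12.9 and 10.8 to 45.8 FPKM for 8 markers of macrophages and monocytes, and 5.95 to 15.1 and 17.7 to 28.3 FPKM for 7 dendritic cell markers. Ms4a1, a defining B cell gene, was listed at 0 in all 8 libraries. Cd4 was at 0.753 to 1.43 FPKM with OVA-T4 and 0.927 to 1.28 FPKM with TGFβ, and 2 NK cell markers summed to at most 0.248 FPKM. The part of these cells in the results was not tested. In whole samples, fewer cells of a type and less RNA per cell cannot be told apart.

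Most polymerase genes had lower transcript levels with TGFβ. Of the 34, all of which passed the filter of a mean of at least 0.5 FPKM, 23 were lower (67.6%), 2 were higher (Polr3gl and Taf1c) and 9 did not pass the test. Over all 12879 genes tested, 20.2% were lower and 30.7% were higher, by limma on log2(FPKM + 0.5) at a Benjamini-Hochberg adjusted p under 0.05. The median log2 fold change of the 34 genes was -0.31, from -0.94 to 0.82, against 0.08 over all genes tested. The groups of 4 libraries were fully separate for 23 genes that were lower and 2 that were higher, which holds for 18.9% (lower) and 29.1% (higher) of all genes. By over 1.5-fold, 8 of the 34 genes fell and 1 rose, where 6.07% and 13.7% of all genes did so.

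With OVA-T4 the highest gene, Polr2f, was at 213 FPKM and the lowest, Polr3a, at 9.89 FPKM, a ratio of 21.5. FPKM compares genes per length, and the lengths behind these values came to 14% to 100% of the bases annotated as exons, so levels of different genes are comparable only roughly. By polymerase, the 3 Pol I subunits were all lower (median log2 fold change -0.69), as were 4 of the 5 subunits shared by all enzymes (-0.63) and 8 of the 10 Pol III subunits (-0.37). Of the Pol II subunits 3 of 8 were lower (-0.18).

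The split of all genes depended on the scaling. In the deposited values 60.3% of the called genes were higher. With median of ratios scaling this share was 47.5%, and all genes shifted by a median of -0.09 (log2). Then 28 of the 34 genes were lower (26.9% of all genes) and 2 higher (24.3%). With quantile normalization the share was 46.8% and the shift -0.11, with 22 of the 34 lower (26.4%) and 2 higher (23.2%). With TPM scaling they were 65.1% and 0.04, with 21 lower (17.6%) and 3 higher (32.8%). The share of the 34 genes called lower was above that of all genes under each of these scalings.

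**Figure D1:**
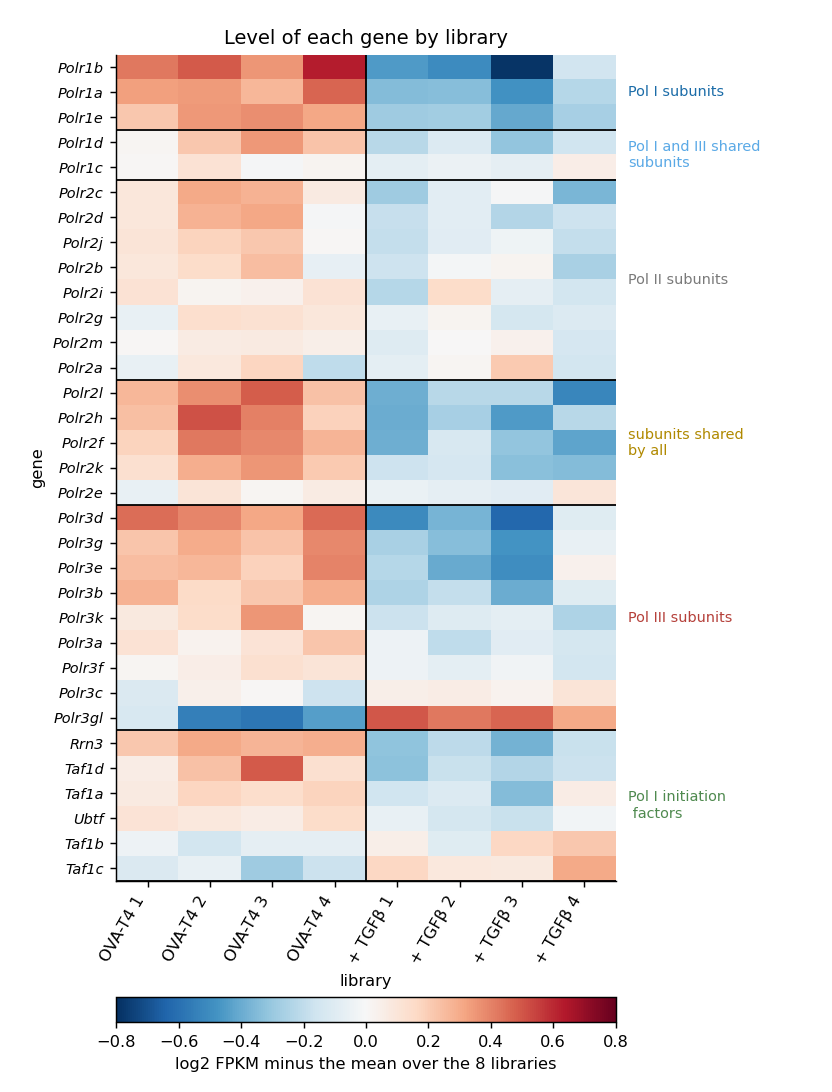
Level of genes of the set in each library, as log2 FPKM minus the mean over the 8 libraries; columns are libraries and rows are genes grouped by polymerase. The Pol I rows are above their mean in the 4 OVA-T4 libraries and below it in the 4 OVA-T4 + TGFβ libraries, and Polr3gl runs the other way.

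The promoters of the genes were read for the E-box CACGTG, the palindrome bound by Myc with Max and by the USF factors. Of the 34 genes, 28 had an entry among the RefSeq promoters of GRCm38.p6, with 37 start sites, each covered from 250 bases before to 50 bases after the start. The motif, the same on both strands, was found in 5 of the 37 promoters (13.5%), against 7.15% of all 32851 promoters in the table. In the bases before the start alone it was in 3 (8.11% against 6.02%). All 5 genes with the motif are shown. They moved in different directions: Rrn3, Polr3e and Polr2h fell, Polr3gl rose and Polr3c did not pass the test. Each stretch is printed on the strand of its gene with the motif in capitals. Rrn3 holds it at bases -215 and -48 from the start, Polr3gl at -194 and Polr3c at -237, whereas in Polr3e (base 6) and Polr2h (base 24) it lies after the start. The stretches are chr16:13780449-13780698 (plus strand) for Rrn3, chr7:120917748-120917807 (plus) for Polr3e, chr16:20717796-20717855 (plus) for Polr2h, chr3:96594346-96594405 (minus) for Polr3gl and chr3:96727647-96727689 (minus) for Polr3c. No entry of Polr1a, Polr1b or Polr1e, the Pol I subunits of the set, held these letters, which says nothing of a factor elsewhere.
Rrn3: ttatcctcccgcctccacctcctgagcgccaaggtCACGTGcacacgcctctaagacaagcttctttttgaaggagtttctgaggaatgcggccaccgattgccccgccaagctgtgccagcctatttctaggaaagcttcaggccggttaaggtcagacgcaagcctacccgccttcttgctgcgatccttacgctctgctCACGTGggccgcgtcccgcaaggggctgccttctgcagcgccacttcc
Polr3e: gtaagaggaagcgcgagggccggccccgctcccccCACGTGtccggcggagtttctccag
Polr2h: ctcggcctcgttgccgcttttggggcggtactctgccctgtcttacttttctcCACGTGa
Polr3gl: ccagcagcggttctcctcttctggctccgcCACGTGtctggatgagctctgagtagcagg
Polr3c: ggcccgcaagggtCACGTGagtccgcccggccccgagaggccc

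Transcripts of the 3 Pol I subunits of the set fell. Among Pol I subunits under other symbols, Cd3eap and Twistnb fell and Znrd1 did not pass the test. Polr1b encodes the second-largest subunit, which closes the active centre (GRCm38 chromosome 2 from 129100995 to 129126594, plus strand). It was at 86.8, 90.8, 82.8 and 99.9 FPKM in the 4 OVA-T4 libraries and at 47.3, 45.7, 37.6 and 58.3 FPKM with TGFβ. The lowest OVA-T4 library lay above the highest treated one. The means were 90.1 ± 7.34 and 47.2 ± 8.54 FPKM (SD, n = 4 each), and the log2 fold change of -0.94 (standard error 0.12, limma adjusted p = 0.000211) was the lowest of the 34 genes.

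Polr1a, the catalytic largest subunit (chromosome 6 from 71909053 to 71984935, plus strand), was at 75.6, 76.2, 72.5 and 83.2 FPKM with OVA-T4 and at 47.3, 47.6, 43.1 and 51.4 FPKM with TGFβ. All treated libraries lay far below all untreated ones, at a log2 fold change of -0.69 (standard error 0.06, limma adjusted p = 3.42e-05). Polr1e, the counterpart of the yeast subunit that helps Pol I to initiate and elongate, went from 35.4 to 23.0 FPKM, a log2 fold change of -0.61. Within the treated group, replicate 4 had the highest and replicate 3 the lowest value for each of the 3 subunits.

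Of the pair that Pol I shares with Pol III, which dimerizes to nucleate assembly of both enzymes, Polr1d fell and Polr1c did not pass the test. Polr1d was at 115.8, 133.1, 145.9 and 134.2 FPKM with OVA-T4 and at 98.0, 106.1, 91.8 and 102.4 FPKM with TGFβ. The groups did not overlap, though OVA-T4 replicate 1 came close to treated replicate 2 (log2 fold change -0.40, standard error 0.07, limma adjusted p = 0.00179). Its partner Polr1c was at 100.9 to 110.2 FPKM with OVA-T4 and 96.4 to 105.4 FPKM with TGFβ, so the groups overlapped (log2 fold change -0.07, limma adjusted p = 0.258). After median of ratios scaling Polr1c passed as lower, at -0.17.

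**Figure D2:**
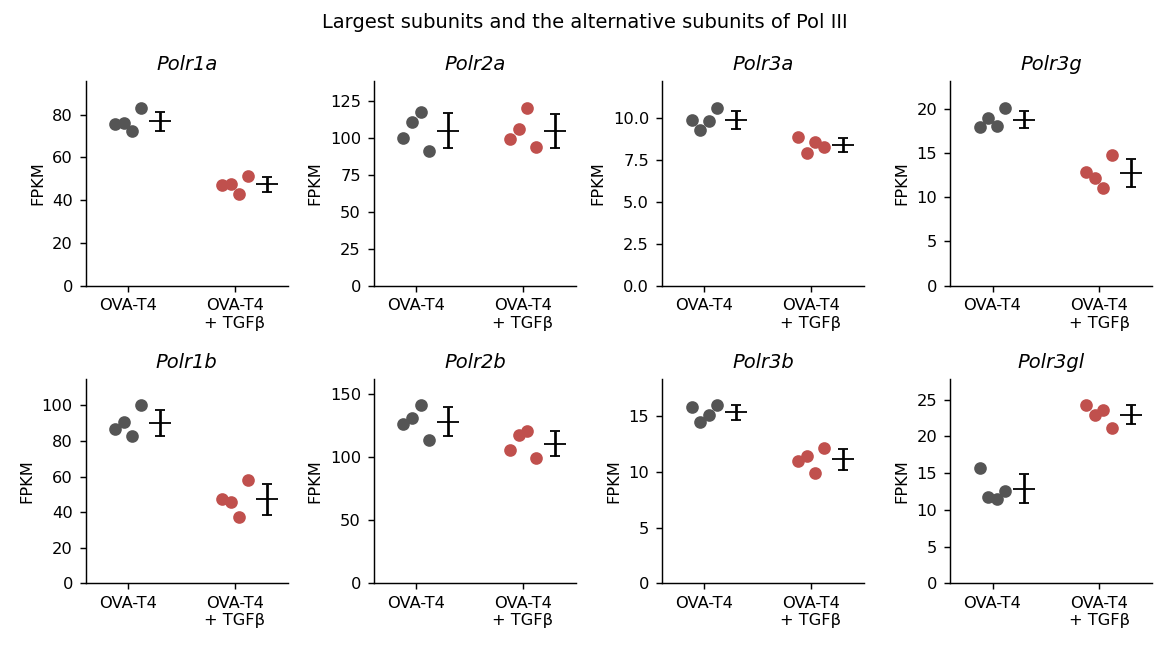
FPKM in each library (points) with the mean and SD of 4 libraries (bars) for the largest (Polr1a, Polr2a, Polr3a) and second-largest (Polr1b, Polr2b, Polr3b) subunits and for the alternative Pol III subunits Polr3g and Polr3gl. All axes start at 0, and Polr2a has a mean of 104.8 FPKM in each group where Polr1a goes from 76.9 to 47.3 FPKM.

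Of the 6 Pol I initiation factors 4 were lower (66.7%, against 20.2% of all genes) and 1 was higher (16.7%, against 30.7%). The remaining 1 did not pass the test. Rrn3, which carries the signal of growth to Pol I and recruits it to the promoter, was at 21.9, 23.2, 22.8 and 23.0 FPKM with OVA-T4 and at 15.1, 16.3, 14.5 and 16.7 FPKM with TGFβ. The untreated values lay close together and all above the treated ones (log2 fold change -0.53, standard error 0.06, limma adjusted p = 0.000113). Ubtf, the factor that coats active ribosomal genes, stood at a higher FPKM and had a smaller fold change, from 150 ± 3.69 to 131 ± 6.39 FPKM (SD, n = 4 each). Its log2 fold change of -0.20 passed the test (limma adjusted p = 0.00615) but not after quantile normalization, at -0.10 and adjusted p = 0.160.

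The Taf1 genes encode the proteins that, with TBP, form the selectivity factor at the ribosomal promoter. Taf1d was at 66.6, 75.2, 89.6 and 69.7 FPKM with OVA-T4 and at 50.8, 56.3, 54.2 and 56.5 FPKM with TGFβ, and OVA-T4 replicate 3 stood highest (log2 fold change -0.46, limma adjusted p = 0.00242). The exons of Taf1d contain small RNAs of the same strand, whose reads the counting could assign to either gene or to neither. Taf1a fell less, from 15.9 to 13.2 FPKM, and its call was lost without OVA-T4 replicate 2 or without treated replicate 1 (limma adjusted p = 0.0564 and 0.0571).

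Taf1c rose. It was at 22.8, 23.7, 20.3 and 22.0 FPKM with OVA-T4 and at 27.7, 26.2, 26.1 and 30.5 FPKM with TGFβ. Every treated library was above every untreated one, at a log2 fold change of 0.31 (standard error 0.07, limma adjusted p = 0.00536). Taf1b, at 15.2 to 16.3 FPKM with OVA-T4 and 15.7 to 19.5 FPKM with TGFβ, did not pass the test (0.16, limma adjusted p = 0.101), but did with the replicate number as a block (adjusted p = 0.0472) and without treated replicate 2 (adjusted p = 0.0264). As for the Pol I subunits, all 6 factors were highest in replicate 4 among the treated libraries.

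Of the 8 Pol II subunits 3 fell, none rose, and no change of the largest subunit could be detected. Polr2a, whose tail of repeats couples transcription to RNA processing (chromosome 11 from 69733997 to 69758637, minus strand), was at 100.2, 110.5, 117.8 and 90.8 FPKM with OVA-T4 and at 99.0, 105.7, 120.4 and 94.1 FPKM with TGFβ. The libraries of the same number were close to each other, and replicate 3 was highest and replicate 4 lowest in both groups. The log2 fold change was 0.00 with a 95% interval of -0.22 to 0.22 (limma adjusted p = 0.996). With the replicate number as a block the interval was -0.08 to 0.08. Its sign turned under other settings, to -0.10 with median of ratios scaling. Polr2b, the second-largest subunit, was at 126.3, 131.2, 140.9 and 113.2 FPKM with OVA-T4 and at 105.8, 117.4, 120.5 and 99.1 FPKM with TGFβ. Each treated library was below the untreated one of its number, but the groups overlapped (log2 fold change -0.21, limma adjusted p = 0.0618, or 0.0012 with the replicate block).

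The 3 Pol II subunits that passed as lower are small ones. Polr2c, which pairs with Polr2j as the assembly platform, was at 36.9, 42.7, 42.0 and 36.5 FPKM with OVA-T4 and at 28.5, 32.7, 34.4 and 26.9 FPKM with TGFβ. The groups did not overlap (log2 fold change -0.37, standard error 0.09, limma adjusted p = 0.00835). Polr2d, which with Polr2g forms the stalk near the RNA exit, was at 53.6, 60.9, 62.4 and 50.0 FPKM with OVA-T4 and at 44.2, 47.4, 42.8 and 44.8 FPKM with TGFβ. Again all treated values were below all untreated ones (log2 fold change -0.33, limma adjusted p = 0.00534). Polr2j went from 54.6 to 45.8 FPKM (-0.25).

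The rest of Pol II did not pass the test. Polr2i, a subunit for proofreading and start site choice, had a log2 fold change of -0.15, Polr2g of -0.14 and Polr2m, which binds the enzyme and blocks a general factor, of -0.10. With the replicate block Polr2b and Polr2g passed, which made 5 of 8 Pol II subunits lower beside 25.4% of all genes, and 3 of the 34 genes were higher beside 35.5%. After median of ratios scaling 7 of 8 were lower, all but Polr2a, beside 26.9%. Without treated replicate 2 the number was also 5, and over all genes 2467 were lower, against 2607 with all libraries. Whether reads were counted by strand is not stated in the sources used here. In the annotation 26.8% of the exon bases of Polr2i and 15.9% of those of Polr2j overlap genes on the opposite strand, Tbcb (54.0 to 64.4 FPKM) and Lrwd1 (40.7 to 52.3 FPKM), so the values of both are uncertain. Dok4, opposite 18.1% of the exon bases of Polr2c, reached 0.804 FPKM, and Dnaaf1, opposite 16.7% of those of Taf1c, reached 0.189 FPKM.

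**Figure D3:**
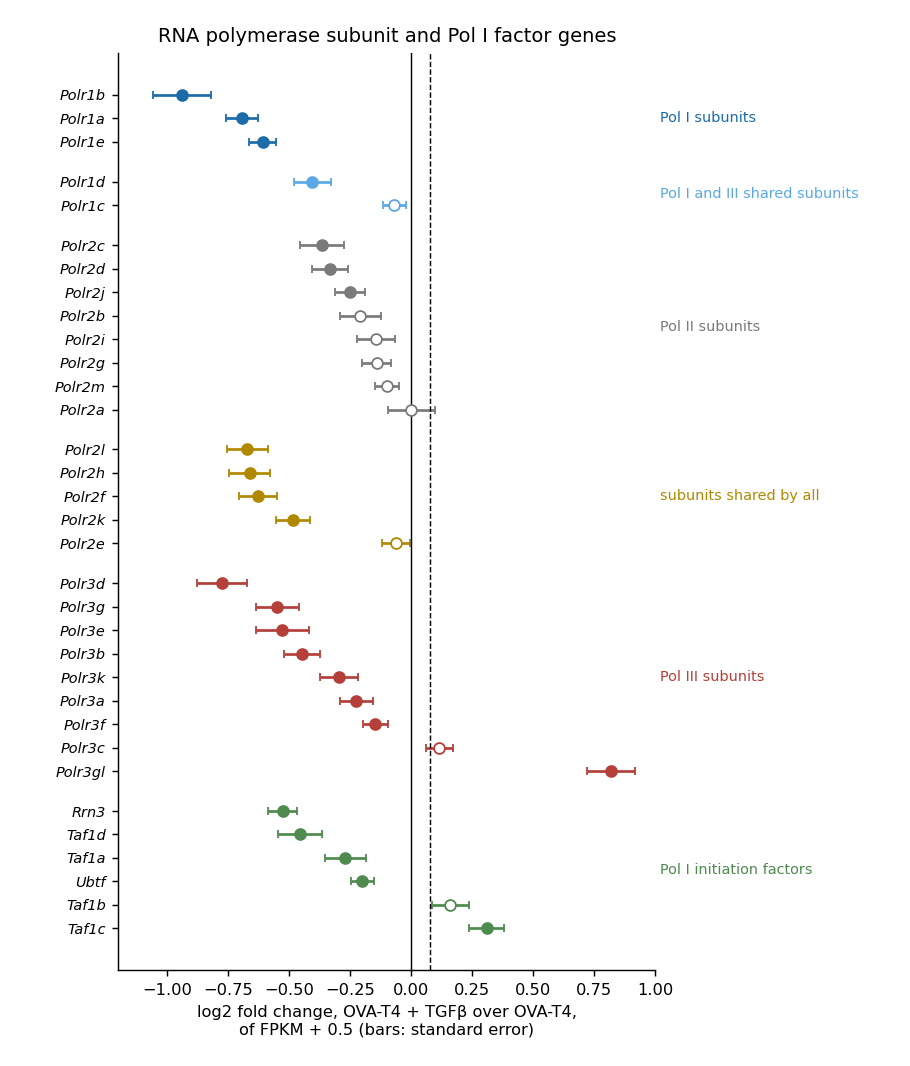
Log2 fold change of FPKM + 0.5, OVA-T4 + TGFβ over OVA-T4, for genes of the set with their standard errors (bars); filled points passed limma at an adjusted p under 0.05, open points did not, and the dashed line is the median of all genes tested (0.08). Polr1b lies farthest left at -0.94 and Polr3gl farthest right at 0.82.

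The small subunits common to all 3 enzymes fell together except Polr2e. Polr2l, a zinc-binding subunit at the base of the assembly platform, was at 50.4, 54.0, 58.7 and 49.2 FPKM with OVA-T4 and at 31.9, 35.8, 35.9 and 29.1 FPKM with TGFβ. Polr2h was at 56.0, 67.4, 62.9 and 53.8 FPKM with OVA-T4 and at 36.0, 39.5, 34.6 and 40.8 FPKM with TGFβ. In both genes a wide gap parted the groups, with log2 fold changes of -0.67 (limma adjusted p = 0.00018) and -0.66 (adjusted p = 0.000199). Polr2f, which had the highest FPKM of the set, was at 193.4 to 229.1 FPKM with OVA-T4 and 127.3 to 156.2 FPKM with TGFβ (log2 fold change -0.63). Polr2k, another zinc-binding subunit, went from 61.9 to 44.1 FPKM (-0.49). Polr2e, which sits in the jaw that grips the incoming DNA, was at 107.3 to 120.2 FPKM with OVA-T4 and 105.3 to 119.6 FPKM with TGFβ, and its groups overlapped (-0.06, limma adjusted p = 0.389).

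Pol III subunits fell in 8 of 10 genes, and the alternative subunits Polr3g and Polr3gl moved apart. Polr3d, part of the dimer with Polr3e that helps Pol III to initiate and terminate, was at 21.3, 20.4, 19.3 and 21.3 FPKM with OVA-T4 and at 10.96, 12.05, 10.09 and 14.56 FPKM with TGFβ. The groups lay far apart (log2 fold change -0.77, standard error 0.10, limma adjusted p = 0.000282). Polr3e, its partner, went from 16.7 to 11.5 FPKM (-0.53).

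The large Pol III subunits fell, with fold changes smaller than that of Polr3d. Polr3b, the second-largest, was at 15.8, 14.5, 15.2 and 16.0 FPKM with OVA-T4 and at 11.03, 11.43, 9.93 and 12.2 FPKM with TGFβ. No treated library reached the untreated range (log2 fold change -0.45, limma adjusted p = 0.000909). Polr3a, the catalytic subunit, was at 9.86, 9.29, 9.81 and 10.6 FPKM with OVA-T4 and at 8.84, 7.91, 8.56 and 8.26 FPKM with TGFβ. The groups were separate but close, and the log2 fold change of -0.22 (limma adjusted p = 0.0217) no longer passed without OVA-T4 replicate 4 or treated replicate 2 (adjusted p = 0.0521 and 0.0617).

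Polr3k, which helps Pol III to cleave its RNA and to terminate, went from 36.0 to 29.2 FPKM (log2 fold change -0.29). Polr3f and Polr3c belong to the trimer that, with Polr3g or Polr3gl, opens the promoter. Polr3f was at 27.0 to 29.3 FPKM with OVA-T4 and 24.2 to 26.2 FPKM with TGFβ, a log2 fold change of -0.15 (limma adjusted p = 0.037) that was lost in 6 of the 8 fits without 1 library, at adjusted p of 0.0570 to 0.0933. Polr3c was at 50.3 to 57.9 FPKM with OVA-T4 and 57.6 to 60.5 FPKM with TGFβ and did not pass (0.12, limma adjusted p = 0.11), but after TPM scaling it was higher at 0.15 (adjusted p = 0.0374).

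Polr3g and Polr3gl are paralogs that fill the same place in the enzyme, and in mouse and human Polr3g is known from stem cells and Polr3gl from most differentiated tissues. Polr3g (chromosome 13 from 81673843 to 81711013, minus strand) was at 17.9, 18.9, 18.1 and 20.1 FPKM with OVA-T4 and at 12.9, 12.2, 11.1 and 14.8 FPKM with TGFβ. Polr3gl (chromosome 3 from 96577872 to 96594181, minus strand) was at 15.7, 11.7, 11.5 and 12.6 FPKM with OVA-T4 and at 24.2, 23.0, 23.6 and 21.1 FPKM with TGFβ. Neither gene overlapped between the groups, and the order of the pair was the opposite in the 2 conditions in all 8 libraries. The log2 fold changes were -0.55 (standard error 0.09, limma adjusted p = 0.000803) for Polr3g and 0.82 (standard error 0.10, limma adjusted p = 0.000156) for Polr3gl.

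The ratio of a pair of transcripts within a library does not depend on the library total, and 5 such ratios were compared. Polr3g over Polr3gl was 1.14, 1.62, 1.57 and 1.59 with OVA-T4 and 0.531, 0.531, 0.469 and 0.700 with TGFβ. It was above 1 in every untreated library and below 1 in every treated one, a log2 difference of -1.41 (standard error 0.17, exact permutation p = 0.0286, two-sided, 0.0714 adjusted over the 5 ratios). Polr1a over Polr2a was 0.754, 0.689, 0.615 and 0.917 with OVA-T4 and 0.478, 0.450, 0.358 and 0.546 with TGFβ. These also did not overlap, at a log2 difference of -0.70 (standard error 0.18, with the same exact permutation p of 0.0286 and 0.0714 adjusted). With 4 libraries against 4 the exact test cannot go below 0.0286, which these 2 ratios reached, and no ratio passed after adjustment over the 5.

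The ratios for the second-largest subunits and for Pol III overlapped between the groups, but within numbered pairs all 5 ratios were lower with TGFβ in 4 of 4 pairs. A paired exact sign-flip test gave p = 0.125 for each, the smallest that 4 pairs allow. Polr1b over Polr2b had a log2 difference of -0.74 (exact permutation p = 0.0571, adjusted 0.0952), and the treated library of replicate 4, at 0.589, was just above the OVA-T4 library of replicate 3, at 0.588. Polr3a over Polr2a differed by -0.24 (standard error 0.14, exact permutation p = 0.171), with pairs at -0.41 to -0.14. Polr3b over Polr2b differed by -0.26 (standard error 0.15, exact permutation p = 0.143), with pairs at -0.39 to -0.18. In each of the 4 ratios to a Pol II subunit, replicate 4 was the highest library of the OVA-T4 group and replicate 3 the lowest of both groups.

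**Figure D4:**
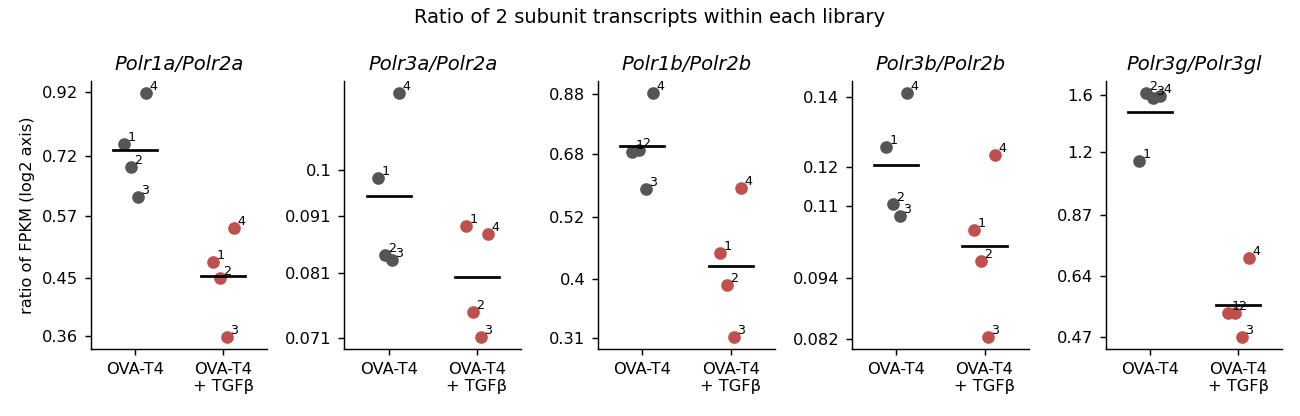
Ratio of the FPKM of 2 subunits in each library, on a log2 axis with its own range in each panel; points carry the replicate number and lines are geometric means. Polr3g over Polr3gl falls from a geometric mean of 1.47 to 0.552 and Polr1a over Polr2a from 0.736 to 0.453, and the other 3 ratios overlap between the groups.

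Further subunits are listed under other symbols, and 3 of these 4 fell. Cd3eap, a Pol I subunit despite its name, had a log2 fold change of -0.76 and Twistnb, of the Pol I stalk, of -0.42. Crcp, of the Pol III stalk, was at -0.27, and Znrd1, of Pol I, did not pass (-0.02). Of the 13 genes for assembly and import of the polymerases 8 were lower and none higher (61.5%, against 20.2% of all genes). The ATPases Ruvbl1 and Ruvbl2, of the chaperone complex that assembles Pol II and other machines, fell from 155 to 88.3 FPKM (log2 fold change -0.81) and from 145 to 81.5 FPKM (-0.83).

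Of 16 Pol III factors 4 were lower and 4 higher, 25% each way, which is near the 20.2% and 30.7% of all genes. Maf1, the repressor of Pol III, was at 76.6, 68.2, 70.3 and 71.8 FPKM with OVA-T4 and at 116.9, 99.0, 104.3 and 112.4 FPKM with TGFβ, with all treated libraries higher (log2 fold change 0.59, limma adjusted p = 7.41e-05). Gtf3c1, of the factor that binds inside transfer RNA genes, rose by 0.48. Of 29 Pol II general factors tested 12 were lower (41.4%) and 2 higher (6.9%), led by Gtf2e2 of TFIIE (-0.61) and Gtf2h1 of TFIIH (-0.51).

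Of the 21 Pol II elongation factors 5 were lower (23.8%, against 20.2% of all genes) and 1 was higher. Supt16 and Ssrp1, the subunits of the FACT complex that passes nucleosomes, were both at -0.36. The mitochondrial polymerase machinery is separate from the nuclear enzymes, and 5 of its 8 genes were lower. Tefm, its elongation factor, went from 9.94 to 6.09 FPKM (log2 fold change -0.66), and Tfam, which packs mitochondrial DNA, fell by 0.35.

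Of 10 transcripts made by Pol I and Pol III themselves 3 passed the filter, in libraries enriched for poly(A) RNA. Rpph1, the RNA of RNase P made by Pol III, was at 96.7, 177.5, 117.4 and 79.8 FPKM with OVA-T4 and at 29.2, 34.6, 39.0 and 22.5 FPKM with TGFβ. The groups did not overlap, and the log2 fold change was -1.86 (standard error 0.24, limma adjusted p = 0.000254). OVA-T4 replicate 2, the library that stood apart in Rn18s-rs5, was the highest. Rn7sk, the RNA that restrains elongation by Pol II, was at 74.9 FPKM in that library and at 2.18 to 4.98 FPKM in the other 7, and neither it nor Rn18s-rs5 passed the test.

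**Figure D5:**
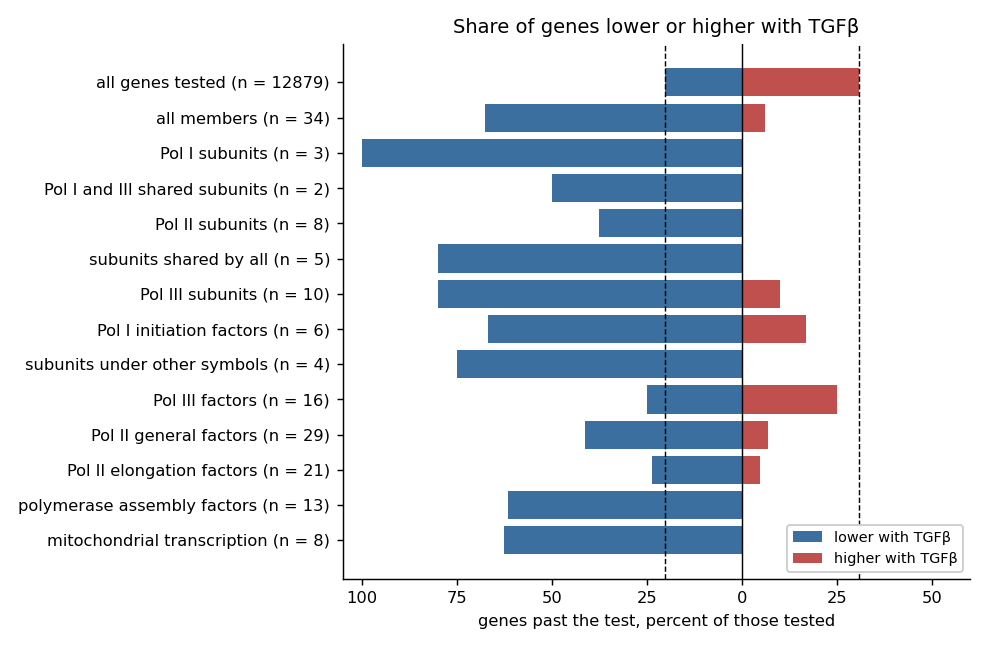
Percent of the genes tested in each list that were lower (to the left) or higher (to the right) with TGFβ at a limma adjusted p under 0.05; dashed lines mark all 12879 genes (20.2% lower, 30.7% higher). The Pol I subunits reach 100% lower on 3 genes, the 34 genes together 67.6% and the Pol II subunits 37.5%.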

How the data were processed

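RNA came from 8 samples, 4 per group, with oligo(dT) enrichment and random hexamer priming. The labels name an RNeasy kit and the study's methods TRI Reagent with Direct-zol. Per the labels, the submitters' processing used CASAVA, HISAT2 and HTSeq on mm10, whose versions are not given in the sources used here. The authors deposited FPKM, already divided by library total and gene length. Library totals and gene lengths were solved so that values became whole fragments, to within 0.01, for 23841 of 23842 genes above 0. The smallest fitting length was taken, so fragments can be understated by a common factor.

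Genes averaging at least 0.5 FPKM were compared by limma 3.58.1 (R 4.3.3) on log2(FPKM + 0.5) with a variance trend, two-sided, with Benjamini-Hochberg adjustment over all 12879 genes. This scale understates changes of low genes. The step was tested on simulated data. Ratios used exact permutation tests (SciPy 1.17.1). GENCODE M21 (GRCm38) gave positions and held 98.8% of the gene IDs. Same-numbered libraries deviated together from their group means (r = 0.179, 0.205, 0.419 and 0.505), while differently numbered ones had r of -0.489 to 0.254. Since every same-numbered r was over 0.1, a fit with the number as a block stands beside the unpaired main fit. Neither labels nor methods state a pairing, and 3 differently numbered combinations had r above 0.179 and 0.205. The alternatives were pseudocounts of 0.1 and 1, no filter or a minimum of 1 FPKM, median of ratios, TPM and quantile scaling, the replicate block, each library left out in turn and, chosen after seeing the data, limma voom on the solved fragments. The genes and lists were chosen with earlier results of these data known. Values in every library are given for the 2 genes per class with the largest change among those called, those called higher and those in the ratios, while each further list names its 2 largest changes. Exceptions, chosen after their values were seen, are Maf1 and Rpph1 in full, the range of Rn7sk, and Rn18s-rs5. The remaining genes of the 4 under other symbols are also exceptions of this kind. The values of 1 Pol III subunit gene are not reported here, though it is part of the counts.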

Additional observations from a re-analysis of the deposited data

Results flagged for a closer look

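Among 78 groups of 4 values examined (34 genes and 5 ratios in 2 conditions), a single value lay far from the others of its group. The ratio of Polr3g to Polr3gl was 1.14 in OVA-T4 replicate 1, where the nearest of the other untreated libraries was at 1.57, a gap of 0.913 of the whole range of the group (critical value 0.829 for 4 values). Chance flags about 5% of such groups. In that library Polr3gl was at 15.7 FPKM, above the other 3 OVA-T4 libraries (11.5 to 12.6 FPKM), and Polr3g was the lowest of the 4, at 17.9 FPKM.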

How the results depend on the processing

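Of the 34 genes, 26 kept their direction and their side of the threshold in all 8 fits without 1 library, and all 34 did under pseudocounts of 0.1 and 1, with no filter, with a minimum of 1 FPKM and in limma voom on the solved fragments. Without 1 library the number lower was 21 to 24 and the number higher 2 to 3. With median of ratios scaling the shared Pol I and III subunits called lower went from 1 to 2 and the Pol II subunits from 3 to 7, and Polr2a turned to -0.10 (log2). With TPM scaling 2 Pol III subunits were higher, and Polr3a and Polr3f no longer passed (adjusted p = 0.0596 and 0.132, limma). With quantile normalization Polr2e turned to 0.0106 and Ubtf no longer passed. Leaving out 1 library gave 3 to 5 Pol II subunits lower, 1 to 2 Pol I initiation factors higher and log2 fold changes of -0.0678 to 0.0588 for Polr2a. Polr2a was negative without OVA-T4 replicate 1 or 4 or treated replicate 2 or 3 (-0.0184, -0.0657, -0.00535 and -0.0678). With the replicate block 5 Pol II subunits were lower and 2 Pol I initiation factors higher (Polr2b, Polr2g and Taf1b gained), and no other call among the 34 genes changed. Over all genes, 2235 to 2556 were lower and 3317 to 4065 higher without 1 library. The motif CACGTG was in 3 promoters, against 5, when only bases before the start were read. The causes of these differences were not tested. The polymerase genes had at least 339 fragments per library, and the number of libraries limits the exact test of the ratios.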

Other observations

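Polr3gl and Polr3c lie 117 kb apart on chromosome 3 of GRCm38, and the genes around them were looked at after their values were seen. From Txnip to Cd160 on that chromosome 15 genes were tested, of which 5 were higher with TGFβ, 1 was lower and 9 did not pass (limma, with 30.7% of all genes higher and 20.2% lower). Pias3, an inhibitor of STAT signalling, went from 6.66 to 12.3 FPKM (log2 fold change 0.84), beside 0.82 for Polr3gl. Txnip, a regulator of glucose uptake next to Polr3gl, went from 44.2 to 56.2 FPKM (0.35). Rbm8a, a core protein of the exon junction complex that lies between Polr3gl and Polr3c, was the lower gene, from 101 to 69.9 FPKM (-0.52).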
